A study of Mus musculus with 2 samples.

Results

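The calmodulin genes Calm2 and Calm3, the calmodulin-dependent kinase genes Camk2a, Camk2b, Camk2d, Camk2g and Camk4, the kinase-like gene Camkv and the calmodulin-binding gene Nrgn were read in the newborn mouse hindbrain. These 9 genes, of 43346 mouse genes in the tables, were chosen by name for their role in calcium signalling and matched by Ensembl identifier. The group was the untreated hindbrain of B6NCrl mice at postnatal day 0, with 2 libraries, 1 from pup 1 and 1 from pup 3. A library began with 13 pg of RNA above 200 nt in size, taken from the hindbrain of a single pup and labelled as 1 cell-equivalent, so it held RNA of mixed cells and not of a sorted cell. Both pups carry the same donor record, and their sex was not collected. The libraries held 35462381 expected counts (pup 1) and 29866728 (pup 3).

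Calmodulin is a small calcium sensor that wraps around its targets once calcium binds it, and several genes encode the same protein. CaMKII is a holoenzyme of many subunits drawn from the alpha, beta, delta and gamma genes, activated by calcium and calmodulin and known for its role at synapses. Each subunit gene is spliced in a variable linker between the kinase and the association domain.

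Levels are given in TPM (transcripts counted per unit of length and rescaled to 1000000 over nuclear mouse genes), for each pup and as the mean ± SD of both (n = 2). Detection means 5 or more expected counts. Since each animal gave 1 library, differences between the pups have no replicate check, and no test was possible. Differences are on the scale of log2(TPM + 1), which understates those of low genes. In a library of mixed cells, fewer cells of a type and less RNA per cell cannot be told apart. Amplified reads are not independent molecules, so intervals and floors cover counting error only.

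Calm2 and Calm3 encode 1 protein with different letters, which helps to tell their coding reads apart. The first 90 coding bases of each are shown for that reason, from base 1 of the start codon, taken from the GENCODE M21 transcripts on GRCm38. Capitals mark the 15 positions at which the genes differ.

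Calm2-201: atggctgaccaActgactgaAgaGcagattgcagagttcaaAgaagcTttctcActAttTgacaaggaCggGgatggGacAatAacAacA
Calm3-201: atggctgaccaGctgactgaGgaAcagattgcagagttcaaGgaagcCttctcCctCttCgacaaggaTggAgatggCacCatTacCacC

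Over the whole coding sequence of 450 bases, Calm2 and Calm3 differed at 78 bases, 74 of them at the third position of a codon, and at 0 of 149 residues. Their longest shared run anywhere in the pair of transcripts was 17 bases. The deposited counts were whole numbers for 8 of the 9 genes and fractional for Calm2, which means that some Calm2 reads were split with other entries.

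Calm2 (ENSMUSG00000036438.8, chr17:87433412-87446935, minus strand) was the most abundant of the 9 genes. It stood at 2755 TPM in pup 1, from 63046 counts, and at 3013 TPM in pup 3, from 60796 counts (2884 ± 182 TPM). By level it was number 20 of all protein-coding genes in pup 1 and number 16 in pup 3. Calm3 (ENSMUSG00000019370.10, chr7:16915379-16924114, minus strand) reached 519 TPM in pup 1 against 380 TPM in pup 3 (449 ± 98.3 TPM), from 16395 and 11372 counts. The log2 difference of pup 3 over pup 1 was 0.13 for Calm2 and -0.45 for Calm3. Calm2 therefore took 84.2% of the summed TPM of Calm2 and Calm3 in pup 1 and 88.8% in pup 3, and by counts 79.4% (95% Wilson interval 79.1 to 79.6%) and 84.2% (84.0 to 84.5%). Together they summed to 3274 TPM in pup 1 against 3392 TPM in pup 3.

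The calmodulin genes differed in how their reads fell on transcript models. Calm2 was nearly all Calm2-201, the coding transcript, at 99.6% of its TPM in pup 1 and 99.7% in pup 3. In Calm3 the coding transcript Calm3-201 held 63.0% and 69.5% of the TPM, and the 482-nt processed transcript Calm3-204 held 34.9% and 30.4%. By counts Calm3-201 held 90.5% in pup 1 and 92.8% in pup 3, since TPM divides each count by the length of its model. Without models under 700 nt Calm3 stood at 327 TPM in pup 1 against 264 TPM in pup 3.

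**Figure D1:**
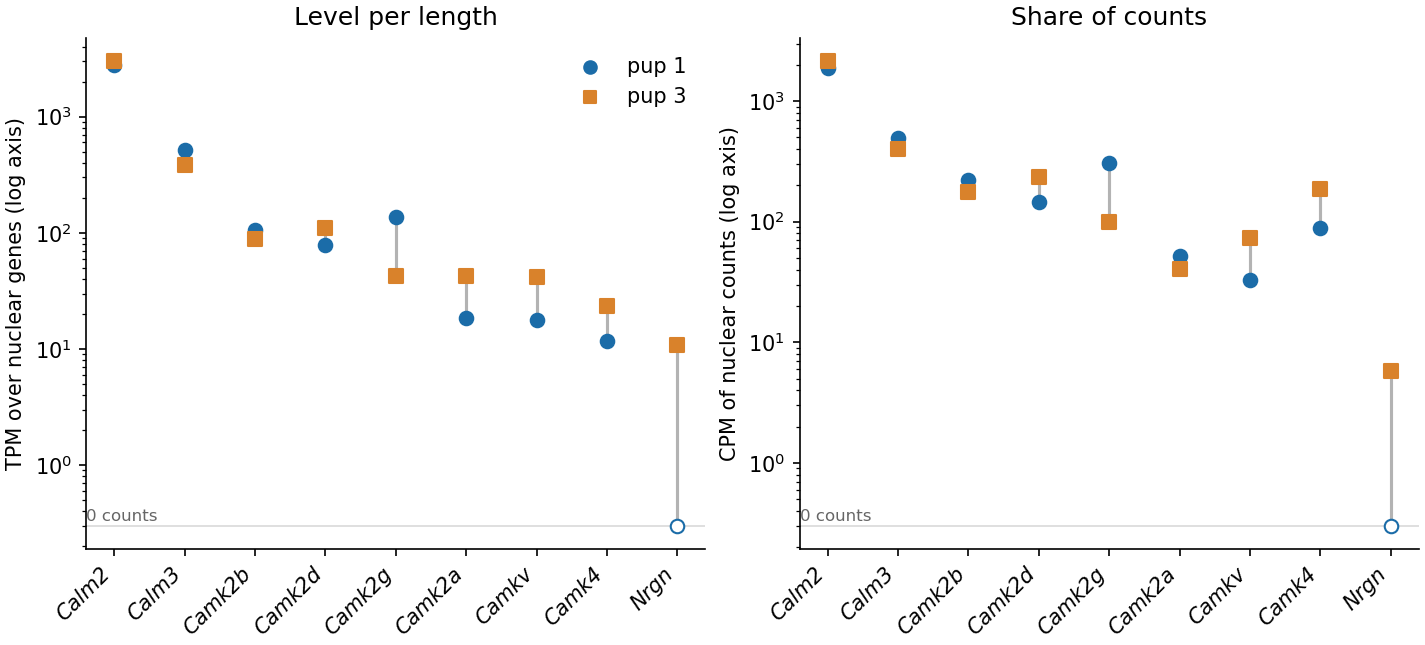
Level of each gene in pup 1 (circles) and pup 3 (squares), in TPM on the left and in CPM of nuclear counts on the right, both on log axes, with an open symbol for 0 counts. Calm2 and Calm3 lie above the kinases in both pups, Camk2a is higher in pup 3 by TPM and lower by counts, and Nrgn has 0 counts in pup 1.

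The genes were ordered by mean level as Calm2, Calm3, Camk2b, Camk2d, Camk2g, Camk2a, Camkv, Camk4 and Nrgn. The pups' ranges overlapped for the neighbours Camk2b and Camk2d, Camk2d and Camk2g, Camk2a and Camkv, and Camkv and Camk4. They did not overlap for Calm2 and Calm3, for Calm3 and Camk2b, for Camk2g and Camk2a (42.8 TPM against 42.1 TPM at the nearest) or for Camk4 and Nrgn (11.6 TPM against 10.8 TPM).

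The CaMKII genes together stood at 338 TPM in pup 1 against 284 TPM in pup 3 (311 ± 38.7 TPM). Camk2b, the beta subunit gene, took 31.1% of that sum in pup 1 and 31.2% in pup 3. Camk2g, the gamma subunit gene, took 40.4% in pup 1 and 15.1% in pup 3, and Camk2d, the delta subunit gene, took 23.0% and 38.8%. The leading subunit gene was thus Camk2g in one pup and Camk2d in the other, beside a nearly equal share of Camk2b. Without transcript models under 700 nt, Camk2b (37.7%) and Camk2d (37.1%) were nearly level in pup 3, and Camk2g (43.2%) still led in pup 1. Counts gave the same picture for these genes: of 24155 CaMKII counts in pup 1, 42.1% (41.4 to 42.7%) were from Camk2g and 20.0% (19.5 to 20.6%) from Camk2d, and of 15573 in pup 3, 17.9% (17.3 to 18.5%) and 42.8% (42.1 to 43.6%). Camk2a, the alpha subunit gene, took 5.50% of the TPM in pup 1 and 14.8% in pup 3, but 7.14% (6.82 to 7.47%) and 7.37% (6.97 to 7.79%) of the counts.

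**Figure D2:**
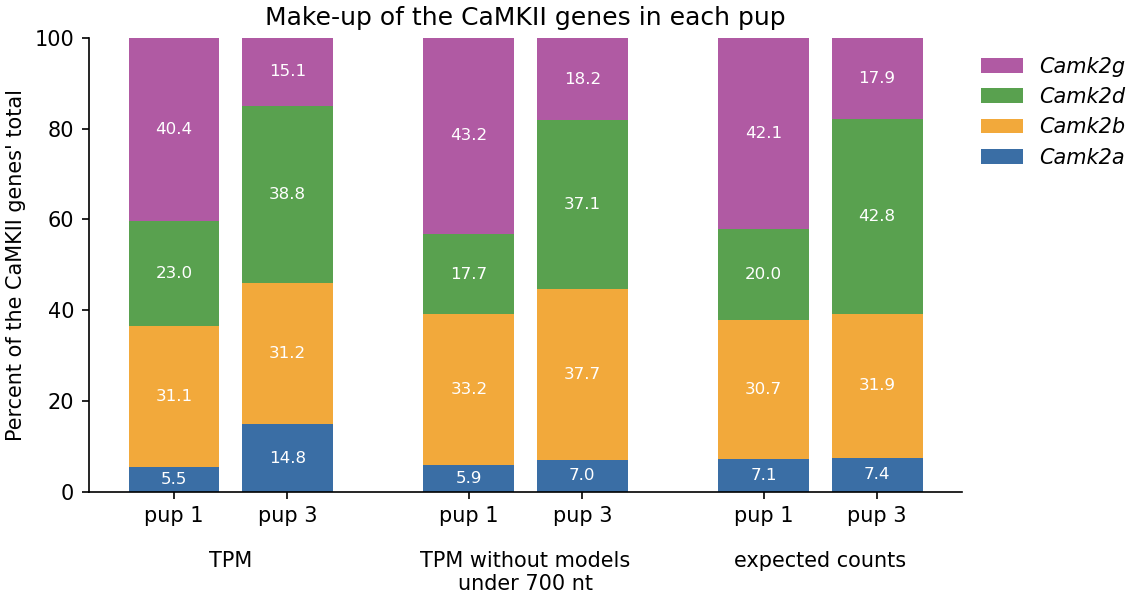
Percent of the summed CaMKII level held by each of the 4 subunit genes in each pup, by TPM, by TPM without transcript models under 700 nt, and by expected counts. Camk2g is above Camk2d in pup 1 and below it in pup 3 under all 3 measures, and the Camk2a share is 5.50% and 14.8% by TPM but 7.14% and 7.37% by counts.

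Camk2g (ENSMUSG00000021820.12, chr14:20734875-20794088, minus strand) had 10162 counts and 137 TPM in pup 1 and 2790 counts and 42.8 TPM in pup 3 (89.7 ± 66.4 TPM). It was 3.20-fold higher in pup 1 by TPM and 3.08-fold by share of counts, the largest difference among the genes detected in both pups. Its transcripts differed as well. Camk2g-201 and Camk2g-202 held 52.7% and 46.6% of its TPM in pup 1, while in pup 3 Camk2g-201 was listed at 0 counts and Camk2g-202 held 98.8%. These transcripts differ by a 33-base coding exon of the linker, so the estimated inclusion of that exon was 52.7% in pup 1 and 0% in pup 3. Both pups thus contained Camk2g RNA without the exon, and only the pup 1 estimate contained it. An exon at the same place in Camk2d and Camk2a is known to encode a nuclear localisation signal. The Camk2g exon (chr14:20747819-20747851, minus strand) and its Camk2d counterpart (chr3:126802937-126802969, plus strand) are shown in capitals with 12 flanking coding bases on each side, on GRCm38 from GENCODE M21 transcripts, because they carry this difference.

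Camk2g 33-base exon: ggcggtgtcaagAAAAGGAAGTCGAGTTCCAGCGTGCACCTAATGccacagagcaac
Camk2d 33-base exon: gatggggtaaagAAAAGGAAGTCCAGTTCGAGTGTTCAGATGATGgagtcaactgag

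The 2 exons were identical at 26 of 33 bases (78.8%) and encoded the same residue at 9 of 11 codons. In Camk2d the full-length coding transcript with this exon, Camk2d-205, was listed at 0 counts in both pups. The exon also lies in Camk2d-218, a retained-intron model that took 28.3% of Camk2d TPM in pup 1 from 133 counts and was at 0 in pup 3. Camk2d-217, a further retained-intron model over the same stretch, was at 0 in pup 1 and took 12.5% of the TPM in pup 3 from 130 counts.

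Camk2d (ENSMUSG00000053819.12, chr3:126596302-126846326, plus strand) had 4843 counts and 78.0 TPM in pup 1 and 6671 counts and 110.2 TPM in pup 3 (94.1 ± 22.8 TPM). It was the CaMKII gene that stood higher in pup 3 by both TPM (log2 difference 0.49) and share of counts (0.70). The same coding transcript led in both pups: Camk2d-206 held 48.6% of the TPM in pup 1 and 55.3% in pup 3, and Camk2d-202 held 16.2% and 23.5%. Camk2d-206 contains a 60-base linker exon that Camk2d-202 lacks, and both contain a 42-base exon. Among coding transcripts spanning the exon, the estimated inclusion of the 60-base exon was 67.9% and 70.2%. That of the 42-base exon was 90.4% in each pup. The coding transcript without the 42-base exon was Camk2d-216 in pup 1 and the 640-nt model Camk2d-220 in pup 3. Camk2d-216 had 456 counts in pup 1, or 9.4% of those of the gene, and Camk2d-220 had 91 counts in pup 3, or 1.4%. The equal inclusion of the 42-base exon was therefore one of TPM and not of counts. The inclusion of the 60-base exon was thus nearly alike in the pups, unlike that of the Camk2g linker exon. The capitals mark the 60-base exon (chr3:126805857-126805916) and the 42-base exon (chr3:126808208-126808249), both from Camk2d-206 on the plus strand. They are shown because most of the TPM of coding Camk2d transcripts spanning them contained them.

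Camk2d 60-base exon: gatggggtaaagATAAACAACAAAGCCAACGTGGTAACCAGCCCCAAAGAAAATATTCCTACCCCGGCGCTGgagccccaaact
Camk2d 42-base exon: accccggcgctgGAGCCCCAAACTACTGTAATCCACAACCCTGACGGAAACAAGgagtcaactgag

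Camk2b (ENSMUSG00000057897.10, chr11:5969644-6066362, minus strand) had 7425 counts and 105 TPM in pup 1 and 4965 counts and 88.6 TPM in pup 3 (96.8 ± 11.7 TPM), a log2 difference of -0.24. The beta subunit is the one known to bind actin filaments. By TPM over all models Camk2b was the steadiest of the CaMKII genes between the pups, but its transcript shares differed. Without models under 700 nt the log2 difference was -0.24 for Camk2b and -0.16 for Camk2a. Camk2b-209 stood at 63.4% of the TPM in pup 1 and 31.8% in pup 3, Camk2b-201 stood at 11.8% and 37.2%, Camk2b-204 at 10.8% and 15.0%, and Camk2b-210 at 0% and 13.1%. By counts Camk2b-209 was the largest in both pups, with 72.9% and 40.6%. The estimated inclusion of the 75-base linker exon (chr11:5987057-5987131) was 66.6% in pup 1 and 46.3% in pup 3. For the 45-base exon (chr11:5981070-5981114) it was 76.2% and 46.3%. By TPM of coding transcripts, both exons were thus estimated in most Camk2b RNA of pup 1 and in a smaller part in pup 3. By counts, most of Camk2b in pup 3 also lay on transcripts with both exons. There Camk2b-209 and Camk2b-210 held 40.6% and 15.8% of the counts, against 21.5% and 19.1% for Camk2b-201 and Camk2b-204, which lack them. The capitals mark each exon, on the minus strand, with 12 flanking bases.

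Camk2b 75-base exon: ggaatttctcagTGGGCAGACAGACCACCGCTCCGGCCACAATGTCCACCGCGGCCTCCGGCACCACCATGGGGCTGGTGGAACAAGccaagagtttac
Camk2b 45-base exon: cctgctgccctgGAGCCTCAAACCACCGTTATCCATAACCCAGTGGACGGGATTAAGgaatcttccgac

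Camkv (ENSMUSG00000032936.9, chr9:107935674-107949691, plus strand) encodes a kinase-like protein that binds calmodulin and is thought to lack kinase activity. It had 1101 counts and 17.7 TPM in pup 1 and 2090 counts and 41.9 TPM in pup 3 (29.8 ± 17.1 TPM), 2.37-fold higher in pup 3 by TPM and 2.25-fold by share of counts. Its reads went almost wholly to one transcript in each pup, and not to the same one. Camkv-201 held 99.2% of the TPM in pup 1 and 0.37% in pup 3, whereas Camkv-204 was at 0% in pup 1 and held 99.6% in pup 3. By the posterior mean TPM that the tables also give, the shares of these leading transcripts were 89.3% in pup 1 and 98.3% in pup 3. The transcripts start at different exons, and Camkv-201 has 84 coding bases that Camkv-204 lacks, namely a whole exon of 76 bases (chr9:107946618-107946693) and the first 8 bases of the next exon (chr9:107946783-107946790). Those bases are in capitals because they separate the transcripts seen in the pups.

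Camkv-201: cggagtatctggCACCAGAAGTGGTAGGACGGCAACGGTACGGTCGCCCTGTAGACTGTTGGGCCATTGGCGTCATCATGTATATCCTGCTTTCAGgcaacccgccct

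**Figure D3:**
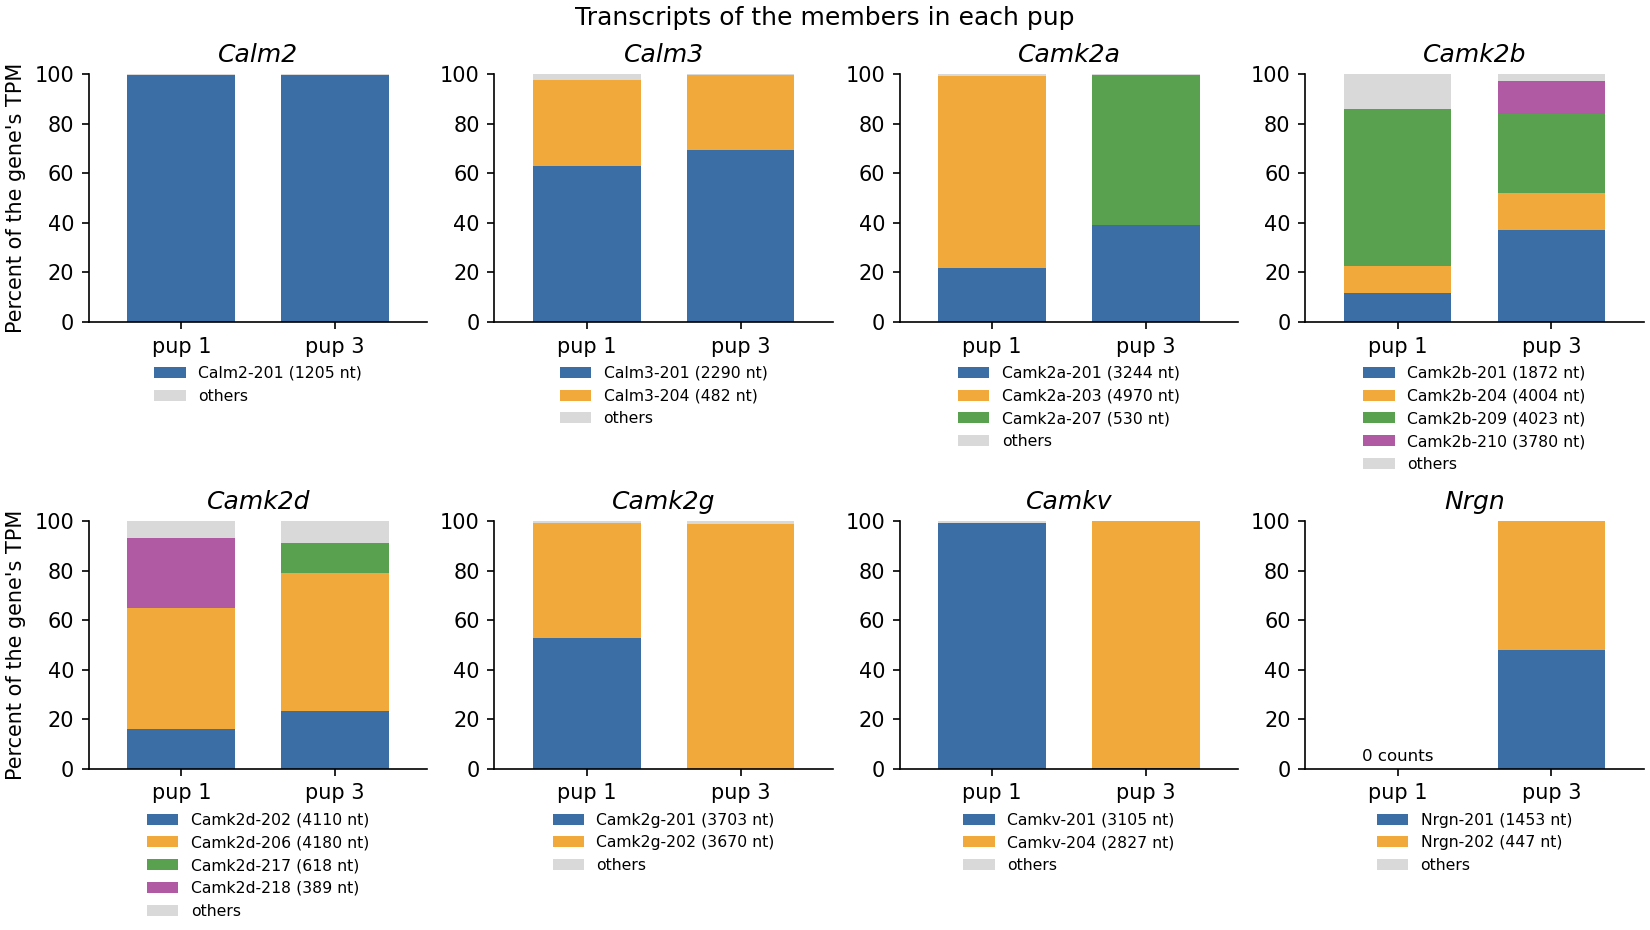
Percent of each gene's TPM held by its transcripts in pup 1 and pup 3, for transcripts at 10% or more in at least 1 pup, with the length of each model and the remainder in grey. Calm2 and Calm3 keep their leading transcript, Camk2g-201 and Camkv-201 are at or near 0 in pup 3, and the 530-nt model Camk2a-207 appears in pup 3 only.

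The transcript with the largest share differed between the pups in 4 of the 7 genes with several transcripts and at least 1000 counts in each pup, namely Camk2a, Camk2b, Camk2g and Camkv, and was the same in Calm2, Calm3 and Camk2d. By counts in place of TPM, Camk2b-209 led in both pups, so that 3 genes differed. Among all 3236 nuclear genes that met the same conditions it differed in 28.8%. At a minimum of 5000 counts only Calm2 and Calm3 were left, with 0 of 2, beside 12.9% of 666 genes. The share of a gene's TPM that lay on different transcripts in the pups was also read. Its median was 42.7% over the 7 genes and 20.9% over all 3236. This comparison was chosen after transcript shares had been seen.

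Camk2a (ENSMUSG00000024617.12, chr18:60925618-60988152, plus strand) encodes the alpha subunit, known as the prominent CaMKII subunit of mature forebrain neurons. It had 1725 counts and 18.6 TPM in pup 1 and 1147 counts and 42.1 TPM in pup 3 (30.3 ± 16.6 TPM). By TPM it was 2.26-fold higher in pup 3, and by share of counts 1.27-fold higher in pup 1, so its direction depended on the measure. Its reads lay on different transcript models in the pups. In pup 1 the 4970-nt transcript Camk2a-203 held 77.6% of the TPM and Camk2a-201 21.8%. In pup 3 Camk2a-203 was listed at 0, Camk2a-201 held 39.1%, and the 530-nt model Camk2a-207 held 60.8% of the TPM from 201 counts. The effective length of the gene, by which its counts are divided, was 4472 nt in pup 1 and 1492 nt in pup 3. Without models under 700 nt Camk2a was at 18.6 TPM in the pup 1 library and 16.5 TPM in the pup 3 library. Of the 8 genes detected in both pups, Camk2a was the one whose TPM and share of counts differed in opposite directions, beside 5.98% of 8931 nuclear genes.

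The estimated inclusion of the 33-base linker exon of Camk2a was 22.4% in pup 1 and 100% in pup 3 among coding transcripts spanning it. Camk2a-207, with 60.8% of the pup 3 TPM, ends before this exon and does not enter. The values mainly compare the models Camk2a-201 (3244 nt), with the exon, and Camk2a-203 (4970 nt), without it. These models also end at different positions, and reads on the exon itself were not counted. In Camk2g the exon at the same place was the higher one in pup 1, with 52.7% against 0% in pup 3.

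Camk4 (ENSMUSG00000038128.6, chr18:32934931-33191228, plus strand) encodes CaMKIV, a monomeric and largely nuclear kinase known for phosphorylating CREB and for its abundance in cerebellar granule cells. It had 2941 counts and 11.6 TPM in pup 1 and 5269 counts and 23.6 TPM in pup 3 (17.6 ± 8.46 TPM). The values differed by 2.03-fold by TPM and 2.12-fold by share of counts, but on the log2(TPM + 1) scale by 0.96, just short of 2-fold. Camk4 had 1 transcript in the tables, 12331 nt long, whereas the GENCODE M21 transcript of the same identifier is 2717 nt long. Camk4 therefore ranked above Camk2a and Camkv by counts in both pups and below them by TPM. The 4 cerebellar granule cell markers Neurod1, Cbln1, Pax6 and Zic1 were detected in both pups, with a summed level of 150 TPM in pup 1 against 117 TPM in pup 3.

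Nrgn (ENSMUSG00000053310.7, chr9:37544492-37552904, minus strand) encodes neurogranin, a postsynaptic protein of forebrain neurons that binds calmodulin at low calcium. It had 0 counts in pup 1 and 163 counts, or 10.8 TPM, in pup 3. Against the limit that 3 counts would give in pup 1, 0.170 TPM, it was at least 63.3-fold higher in pup 3. Of its pup 3 counts 78.0% lay on the coding transcript Nrgn-201 and the rest on the 447-nt processed transcript Nrgn-202, and without the latter its level in pup 3 was 5.15 TPM. Of 1986 protein-coding genes within 2-fold of the Nrgn level in pup 3, 372 (18.7%, Wilson interval 17.1 to 20.5%) were also not detected in pup 1.

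Camk2a and Nrgn are known from forebrain neurons, so a list of 5 forebrain projection neuron markers was read beside them. Of the list, 1 was detected in both pups, 1 in pup 1 only and 3 in neither. Emx1 had 0 counts in both pups and Tbr1 1 and 0 counts. Neurod6, the one detected in both, had 793 and 1853 counts, or 18.6 TPM in pup 1 against 49.4 TPM in pup 3. The part of these markers in the levels of Camk2a and Nrgn was not tested. Of the 6 hindbrain region markers, 5 were detected in both pups, with sums of 482 and 498 TPM, and Hoxb2 was at 0 in both. Most of each sum was from Meis1 (228 and 195 TPM) and Meis2 (131 and 163 TPM). Hoxb3 had 150 counts in pup 1 and 5.98 in pup 3, while Hoxa2 and Hoxb5 were higher in pup 3.

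Of the 9 genes, 8 were detected in both pups, all but Nrgn, beside 37.8% of 21461 protein-coding genes. Camk2a, Camkv and Nrgn (3 of 9) were 2-fold or more higher in pup 3, beside 27.9% of 12300 nuclear genes with at least 50 counts in at least 1 library. Camk2g (1 of 9) was 2-fold or more higher in pup 1, beside 34.7%. In either direction this made 4 of 9 genes, beside 7707 of those 12300. Camk2a turned its direction by CPM, with TMM factors, with DESeq2 size factors and without models under 700 nt. The count higher in pup 3 was then 3 by CPM, where Camk4 passed 2-fold, 2 with TMM factors, 1 with DESeq2 size factors and 2 without the short models, and Camk2g stayed higher in pup 1 in each. The median log2 difference was 0.49 over the 9 genes, also with Nrgn at its lower bound, and -0.17 over all detected nuclear genes. The median of the 9 was 0.19 by CPM, 0.053 with TMM factors, 0.027 with DESeq2 size factors and 0.13 without the short models. Over genes detected in both pups it was 0.31 for 8 of these genes and 0.12 for 8931 nuclear genes. The hemoglobin genes Hba-a2 and Hbb-bs summed to 993 and 3012 TPM in pups 1 and 3, and the 5 neuron markers to 7032 and 4634 TPM. Of the neuron markers Tubb3 and Stmn2 were lower in pup 3, while Snap25, Map2 and Elavl3 were higher there. The part of these cell type markers in the differences was not tested.

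**Figure D4:**
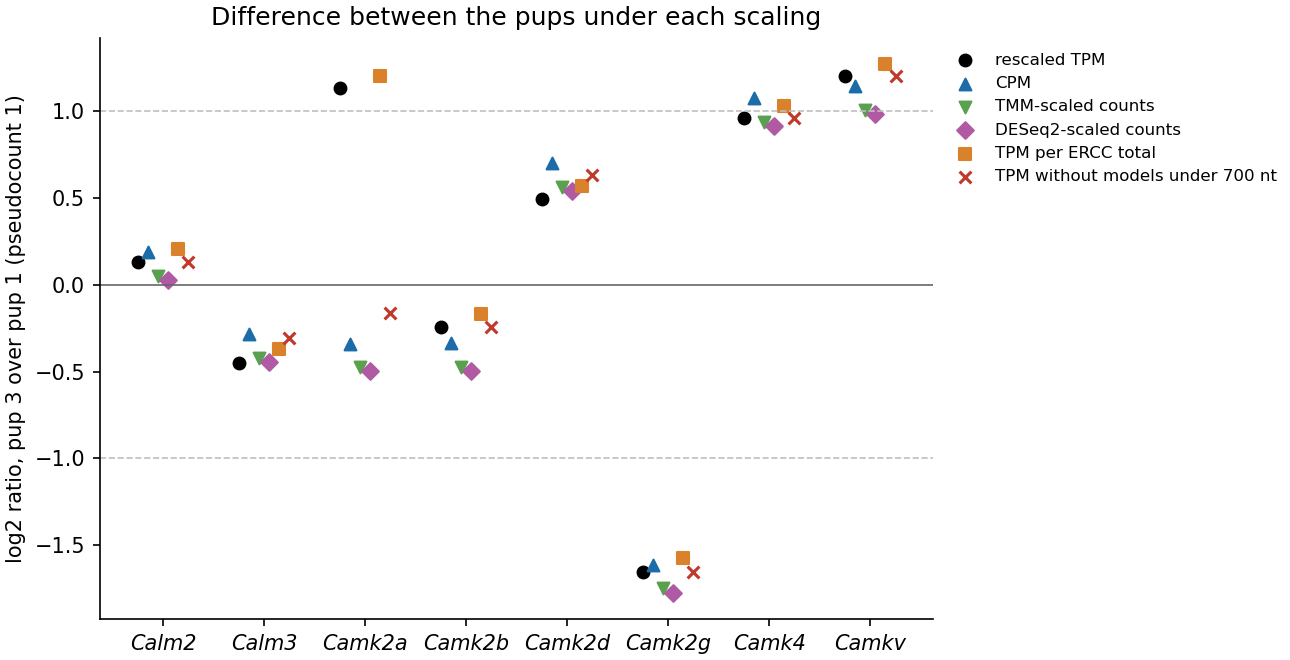
Log2 difference of pup 3 over pup 1 for the 8 genes detected in both pups, with a pseudocount of 1, under 6 scalings, and dashed lines at 2-fold. Camk2a is above 0 under the TPM scalings that include all models and below 0 under the other 4, while the other genes stay on one side of 0.

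A list of 40 further genes of calmodulin signalling was read in the same libraries. Of these, 32 were detected in both pups, beside the 37.8% of protein-coding genes. A further 4 (Camkk2, Eef2k and Nos1 among them) reached detection in pup 1 alone, and 1 (Calml4) in pup 3 alone. The remaining 3 (Calm4, Calml3 and Mylk) were detected in neither. Among all 43309 nuclear genes, 3320 reached detection in pup 1 alone and 1596 in pup 3 alone, beside 8931 in both. Of 37 with at least 50 counts in 1 library, 12 were 2-fold or more higher in pup 3 (all genes 27.9%) and 4 higher in pup 1 (all genes 34.7%), and the median log2 difference over the list was 0.03.

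The calmodulin-binding proteins with an IQ motif were led by a growth cone protein. Gap43, the growth cone protein related to neurogranin, stood at 1696 TPM in pup 1 against 1728 TPM in pup 3. Pcp4, a Purkinje cell protein that speeds calcium exchange on calmodulin, stood at 676 and 769 TPM, and Pcp4l1, its relative, at 77.7 and 46.1 TPM. All 3 were within 2-fold between the pups, in contrast to Nrgn, the other IQ-motif gene read here.

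Among kinases of the CaMKI branch, Pnck was the highest at 167 TPM in pup 1 against 145 TPM in pup 3, above each CaMKII subunit gene in both pups. Camk1 stood at 22.3 and 138 TPM, Camk1d at 0.203 and 11.6 TPM, and Camk1g at 33.4 and 28.6 TPM. Camk1 and Camk1d were past 2-fold, both higher in pup 3. Of the upstream kinases that activate CaMKI and CaMKIV, Camkk1 stood at 16.7 and 27.4 TPM, above Camk4 by TPM in both pups. By counts it was below Camk4, with 1157 against 2941 in pup 1 and 1667 against 5269 in pup 3. Camkk2 had 71 counts in the pup 1 library and 0 in the other. The CaMKII inhibitor genes were detected in both pups, Camk2n1 at 13.6 and 15.9 TPM and Camk2n2 at 12.8 and 37.2 TPM, far below the 338 and 284 TPM of the kinase genes together.

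All 5 listed genes of the calmodulin-dependent phosphatase calcineurin and its regulators were detected in both pups. The regulatory subunit gene Ppp3r1 of calcineurin stood at 137 TPM in each pup and the catalytic subunit gene Ppp3ca at 118 and 109 TPM. Rcan2, which encodes a modulator of calcineurin and not a subunit, stood at 125 TPM in pup 1 against 33.4 TPM in pup 3. The doublecortin-like kinase Dclk1 stood at 114 and 108 TPM. Of the genes detected in 1 pup only, Eef2k, the kinase of elongation factor 2, had 1300 counts in pup 1 against 0 in pup 3. Nos1, the neuronal nitric oxide synthase, had 610 against 0. The calmodulin-like gene Calml4 had 0 counts in pup 1 and 413 in pup 3. Of the 9 listed substrates and partners, 5 were 2-fold or more higher in pup 3 (all genes 27.9%) and 1 in pup 1 (all genes 34.7%).

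**Figure D5:**
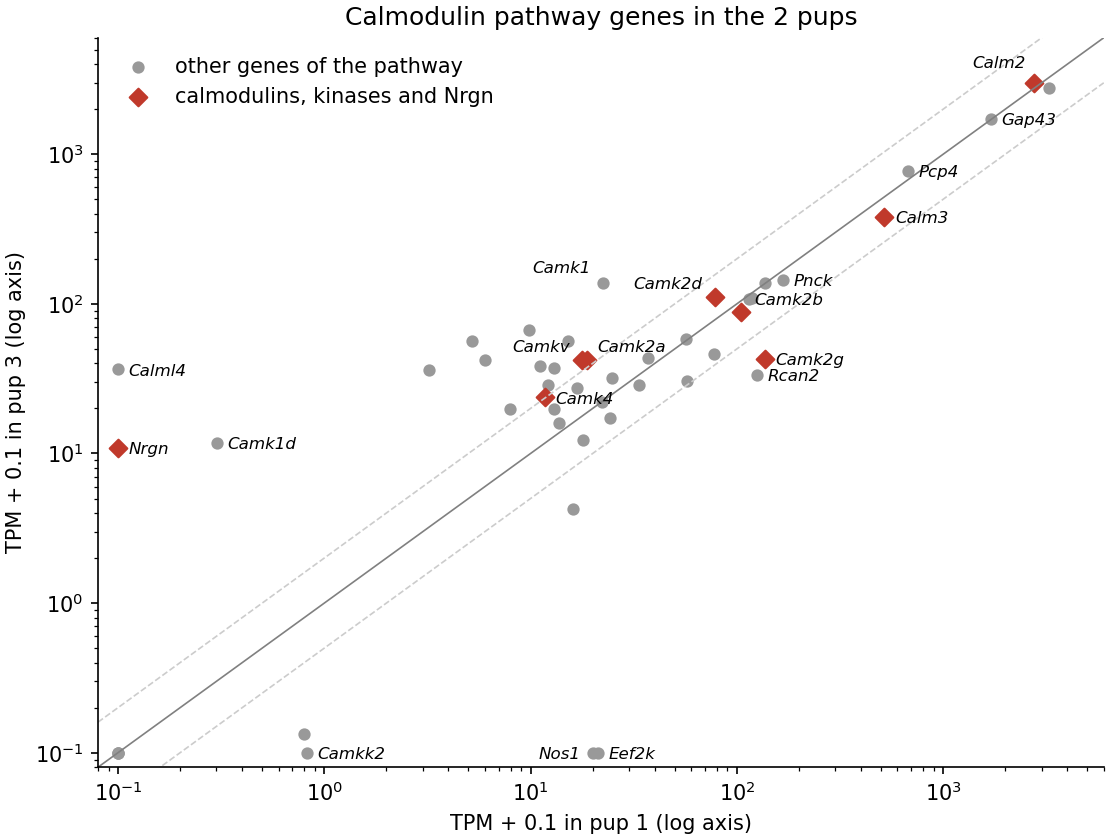
TPM + 0.1 in pup 1 and pup 3 for the 9 genes (diamonds) and 40 further genes of calmodulin signalling (circles), on log axes, with a line of equality and dashed lines at 2-fold. Calm2, Calm3, Gap43 and Pcp4 lie close to equality, Camk2g lies below the lower dashed line, and Nrgn, Calml4, Eef2k and Nos1 lie at the edge for 0 counts.

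The listed genes overlapping Camk2a, Camk2d, Camk4 and Camkv, the antisense genes Gm15551, 2310026I22Rik and Gm37974 among them, had 0 counts in both pups. Several further GENCODE M21 gene models that overlap Camk2d on its own strand were not used here. The sources used here do not give whether counting used strand, and without it reads of Camk2d, Camk4 and Camkv and of those antisense genes cannot be told apart.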

How the data were processed

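RNA-seq tables of 2 hindbrain libraries, 1 group, were analysed. The expected counts are the authors' deposited estimates, in which a shared read is split. The deposited TPM values were scaled over all entries, and the deposited FPKM values by effective length and assigned reads, per the file headers. Transcript shares are the deposited isoform percent values, relative to the gene's TPM. Per the notes deposited with the tables, the assembly was mm10 and the annotation M4. For the aligner, quantifier, versions and strand setting, the sources used here name none. Names, coordinates and coding exons came from GENCODE M21 on GRCm38, the same assembly, which matched 42462 of 43346 mouse genes (98.0%). Coordinates are 1-based.

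TPM was rescaled to 1000000 over 43309 nuclear mouse genes, and a pseudocount of 1 preceded log2. ERCC spike-ins took 2.31% and 2.18% of counts in pup 1 and pup 3, and mitochondrial genes 3.33% and 3.11%. Exon inclusion is the TPM of coding transcripts with the exon over that of all coding transcripts spanning it, partial models included. With 1 library per animal, no test between the pups was run. Wilson intervals are at 95%, and the floor is 3 counts.

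The members and lists were chosen with earlier results of these data known. The text names all 9 members, their transcripts at 10% or more in a pup, and of the 40 pathway genes the 10 highest by mean TPM, the IQ-motif, inhibitor, CaMKI and CaMKK genes, and any detected in 1 pup only. Some genes that this rule names, and an exon, are not reported here. Genes at 0 in both pups were named after their values were seen. Of the marker lists, all members were detected in both pups for neurons (5), granule cells (4), Purkinje cells (4), astrocytes and radial glia (4), the oligodendrocyte lineage (3) and erythroid cells (2), and 2 of 3 for microglia, 1 of 2 for endothelium, 1 of 3 for skeletal muscle, 5 of 6 for the hindbrain region and 1 of 5 for forebrain projection neurons.

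Alternatives were deposited TPM, FPKM, CPM, edgeR TMM factors and DESeq2 size factors on rounded expected counts, the ERCC total, pseudocounts of 0.1 and 5, other detection, minimum count and fold limits, and each library alone. Leaving out transcript models under 700 nt, 1 fixed length per gene, posterior mean shares and other minimum counts for the leading transcript were chosen after seeing the data. Python 3.11.15 (pandas 2.3.3, numpy 2.4.6, matplotlib 3.10.9), R 4.3.3, edgeR 4.0.16 and DESeq2 1.42.0 were used.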

Additional observations from a re-analysis of the deposited data

How the results depend on the processing

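Of 81 alternative values of the log2 difference of single members, 77 kept the direction. The other 4 were those of Camk2a, at -0.34 with CPM, -0.47 with TMM factors, -0.50 with DESeq2 size factors and -0.16 without transcript models under 700 nt, against 1.13 by TPM. The count scalings do not use the effective length, and the last leaves out Camk2a-207. The number of members past 2-fold was 4, and 2 with DESeq2 size factors, where Camkv was at 0.98. It was 1 at a limit of 4-fold. It ranged from 3 to 5 under the other settings, with 3 without models under 700 nt. The median log2 difference of 0.49 was 0.55 with FPKM, 0.19 with CPM, 0.053 with TMM factors, 0.027 with DESeq2 size factors, 0.57 with the ERCC total and 0.13 without models under 700 nt. Across these scalings, the median of all nuclear genes detected in both pups, 0.12 by TPM, moved between -0.01 and 0.19. The mean Calm2 share was 86.5% of the TPM of Calm2 and Calm3 and 81.8% of their counts. The mean Camk2b share of the CaMKII genes was 31.1% by TPM, 31.3% by counts, 31.7% with 1 fixed length per gene and 35.4% without models under 700 nt. Leaving out a library gave 84.2% to 88.8% for Calm2 and 31.1% to 31.2% for Camk2b, 8 or 9 members detected and 33 or 36 pathway genes detected. Where a cause is not named by the construction of the alternative, the cause was not tested. No paired analysis was possible because the labels give 1 group. At this depth 3 counts of Nrgn would correspond to 0.170 TPM in pup 1.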
